A study of Homo sapiens with 12 samples.

Results

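The Sprouty genes SPRY1, SPRY2 and SPRY4 and the Sprouty-related genes SPRED1 and SPRED2 encode inhibitors of the RAS-ERK pathway, and their mRNA was followed in Jurkat cells, an established human T-cell leukaemia line. The 5 genes were taken by name from the 19775 genes that had a probe set with a single gene symbol, and they had 10 such probe sets among 41091. AGO2, the Argonaute protein that carries a miRNA to its target mRNAs, was immunoprecipitated (IP) from cells with a miR-21 overexpression construct and from cells with a control vector. RNA from the AGO2 IP, from an IP with control IgG and from the whole extract (Total RNA) was measured, with 2 replicates for each of the 6 groups and 12 Affymetrix arrays in all. For the IPs 100 ng of RNA was labelled and for Total RNA 1 ug, so the labelled amount differs between these fractions in every array. The labels do not say whether the cells of a construct were a clone or a pool, or whether replicates were separate cultures, so p-values measure only the spread between these samples, which may be technical.

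Growth factor and antigen receptors activate RAS, which turns on the kinases RAF, MEK and ERK in sequence. Sprouty and SPRED proteins are made in response to this signalling and damp it: Sprouty proteins bind adaptors and RAF, and SPRED proteins bring the RAS inactivator neurofibromin to the membrane. In T cells the same cascade runs below the antigen receptor. SPRY1 and SPRY2 have been reported as targets of miR-21, a miRNA that is abundant in many tumours and in activated T cells. In an AGO2 IP, a mRNA bound through a miRNA is recovered with the protein, and repression by the miRNA can lower the same mRNA in Total RNA.

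The miRNA of the construct and the only other miRNA in the RefSeq table with its seed are shown here, since the seed is the stretch by which a miRNA pairs with a target (RefSeq, GRCh38.p14, capitals mark bases 2 to 8).
hsa-miR-21-5p: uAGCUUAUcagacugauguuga
hsa-miR-590-5p: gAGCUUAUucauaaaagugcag
The mature miR-21-5p lies at chr17:59841273-59841294 on the + strand and miR-590-5p at chr7:74191213-74191234 on the + strand. Of 2545 mature entries, 2 had this seed. Both are 22 bases long and have the same base at 8 of the 22 positions. The target sites in the Sprouty and SPRED mRNAs are not analysed here. Each MIR21 probe set is shared with a second gene in the annotation and was left out, so the level of the construct's miRNA was not checked on these arrays.

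Levels are the authors' RMA values on the log2 scale, and differences between groups are log2 differences. Array means were 4.39 to 4.41 in replicate 1 and 5.26 to 5.27 in replicate 2, and the first principal component, with 71.9% of the variance, separated the replicate numbers. Values are therefore given for each replicate, and tests with the replicate number as a block stand beside those without it. In replicate 2, AGO2 IP and IgG IP from the same construct lay closer to each other (SD of the difference over probe sets 0.322 for miR-21 and 0.225 for control) than the AGO2 IP arrays of the 2 constructs did (0.509). The corresponding AGO2 IP to IgG IP values in replicate 1 were 0.617 and 0.700, with 0.543 between the AGO2 IP arrays of the 2 constructs. Over probe sets, AGO2 IP minus IgG IP of replicate 1 (mean of both constructs) had a correlation of -0.017 with the same difference in replicate 2. Its correlation with miR-21 minus control of replicate 2 was 0.51 in AGO2 IP and 0.52 in IgG IP. Values of replicate 2 rest on the array labels as given, which were not tested. In replicate 1, the AGO2 IP control array stood apart in RNA quality: its ACTB 3' probe set exceeded the 5' one by 4.001, against 1.97 in the miR-21 array of that IP and 1.35 to 2.18 over all the other arrays of that replicate. In replicate 2 this ACTB difference was 3.53 (control) and 3.18 (miR-21) in Total RNA, 3.48 in IgG IP miR-21 and 2.08 to 2.58 in the other arrays. The GAPDH difference in replicate 1 was 1.95 in the AGO2 IP control array and 0.14 to 0.46 in the other arrays. In replicate 2 it was lower in Total RNA (0.58 to 0.71) than in the IPs (1.02 to 1.60), unlike the ACTB difference. The IgG IP miR-21 array of replicate 2 was high in both (1.60 for GAPDH). The part of RNA quality in differences between fractions was not tested. All 11 T cell markers analysed were at or above the median of all probe sets that were not controls (4.02), against 2 of 5 B cell markers and 1 of 4 monocyte markers. Of the B cell markers CD79A averaged 6.56, BLK 4.23 and the other 3 between 3.07 (MS4A1) and 3.92 (CD79B). Of the monocyte markers CSF1R averaged 4.53 and the other 3 between 2.78 (LYZ) and 3.86 (ITGAM).

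Transcripts of all 5 genes gave a probe set at or above that median. Of the 10 probe sets 7 were at or above it, and the 3 below it were SPRED1 244439_at, SPRED2 212466_at and SPRED2 214026_s_at. Below, a gene's leading probe set is the one with its highest mean: SPRY1 212558_at, SPRY2 204011_at, SPRY4 221489_s_at, SPRED1 226837_at and SPRED2 212458_at. Averaged over the 12 arrays, these ranked at the 73.8, 85.8, 49.6, 80.7 and 85.4 percentile of all single-symbol probe sets, in that order. Each rank places a probe set among all others and does not compare the amounts of the 5 mRNAs. SPRY4 averaged 4.39, close to the median of 4.02. In Total RNA of replicate 2 it read 4.35 (miR-21) and 4.42 (control), below the median of each of those arrays (4.48). On the other arrays it lay above the array's median. The plot of levels by array shows the shift between replicate numbers, which was large for SPRY1, SPRED1 and SPRED2 and small for SPRY4.

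**Figure D1:**
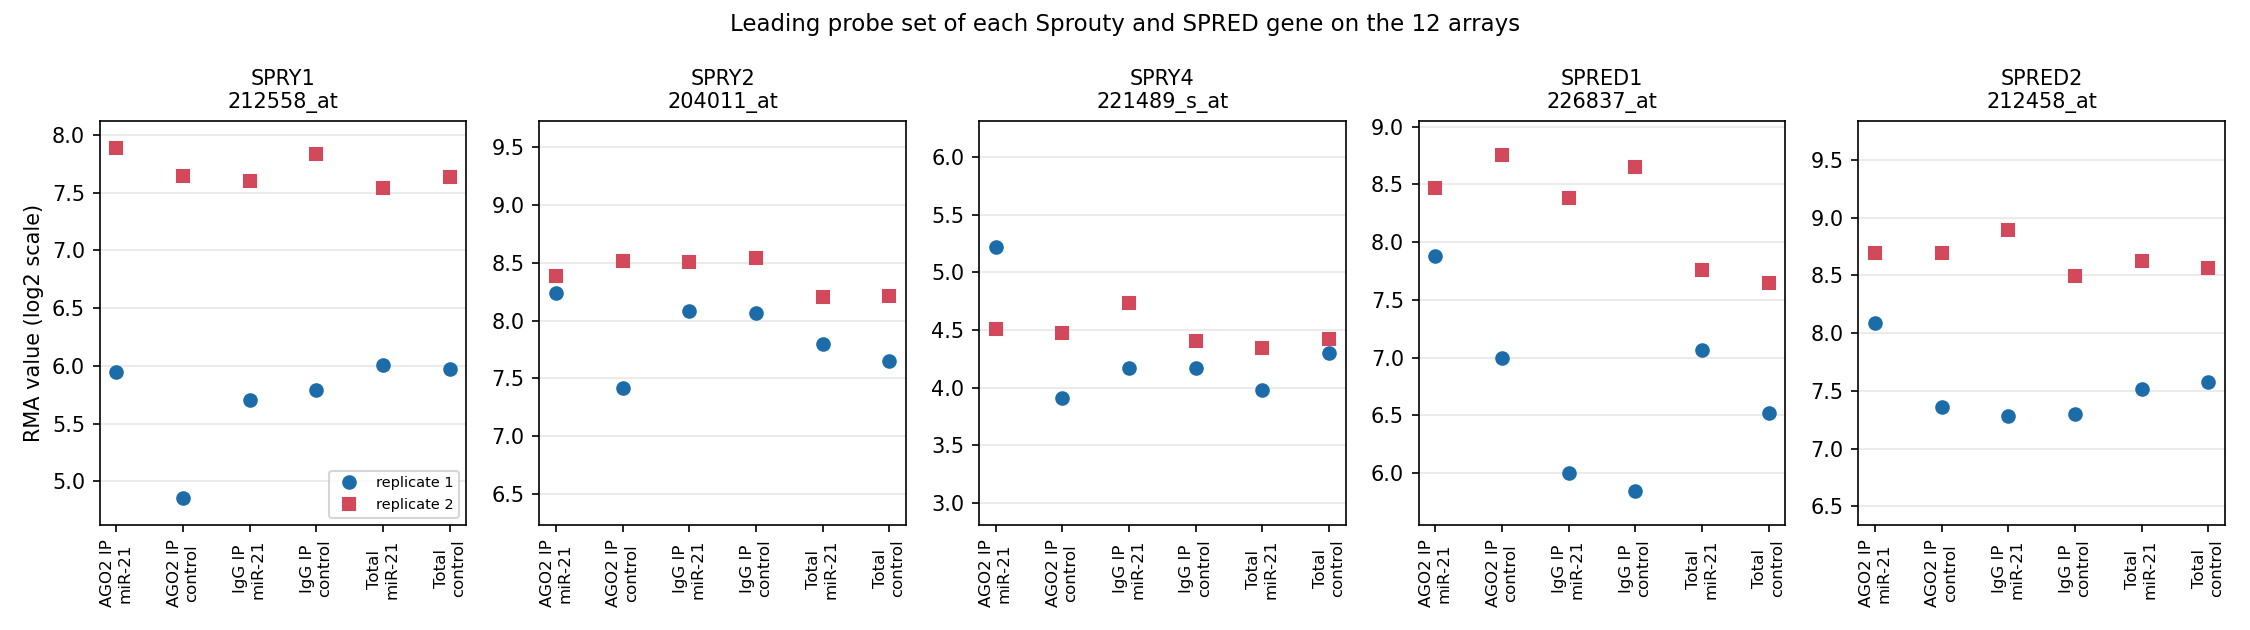
RMA values (log2 scale) of the leading probe set of each Sprouty and SPRED gene on the 12 arrays, with replicate 1 as circles and replicate 2 as squares, and 1 panel per gene with a common span of the vertical axis. SPRY1 was lowest in the AGO2 IP control array of replicate 1 (4.85), and SPRED1 was lowest in the IgG IP arrays of replicate 1 (5.997 in miR-21 and 5.84 in control cells).

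The first comparison set the miR-21 construct against the control vector within each fraction, as the study's title asks for targets of miR-21 recovered with AGO2. No Sprouty or SPRED gene passed the test for the construct in any fraction, and the intervals for SPRY1 and SPRY4 in AGO2 IP reached up to 1.34 and 1.38. In AGO2 IP the 5 leading probe sets were all higher with miR-21 in replicate 1, by 0.73 to 1.31, and ran from -0.29 to 0.24 in replicate 2. In Total RNA, where a repressed target would be lower, they ran from -0.32 to 0.54 in replicate 1 and from -0.10 to 0.11 in replicate 2. limma called 0 of the 10 probe sets in each of the 3 fractions, with and without the replicate block, and none reached an unadjusted p under 0.05. Over all single-symbol probe sets 0% were called in these comparisons too.

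SPRY1, a reported miR-21 target, binds the adaptors and kinases upstream of ERK and restrains signalling from the T-cell receptor. In AGO2 IP its leading probe set read 5.94 and 7.89 in miR-21 cells (replicates 1 and 2), against 4.85 and 7.65 in control cells. The miR-21 array was the higher one in both replicates, by far less in replicate 2. The mean difference was 0.67 (1.09 and 0.24 in the replicates; 95% interval -0.01 to 1.34 with the block; adjusted p = 0.999). In IgG IP the values were 5.71 and 7.61 in miR-21 cells against 5.80 and 7.84 in control cells, a difference of -0.16 (interval -0.84 to 0.52). In Total RNA they were 6.01 and 7.54 in miR-21 cells against 5.97 and 7.64 in control cells, a difference of -0.03 (interval -0.71 to 0.64). On this probe set Total RNA of the 2 constructs therefore lay within 0.10 of each other in both replicates. The second SPRY1 probe set, 230212_at, went the other way in AGO2 IP. It read 5.20 and 5.12 in miR-21 cells against 5.68 and 5.29 in control cells, a difference of -0.32 (interval -0.88 to 0.24). In Total RNA 230212_at read 5.38 and 5.30 in miR-21 cells against 5.28 and 5.75 in control cells. That is a difference of -0.17 (0.11 and -0.45; interval -0.73 to 0.39), with opposite signs in the replicates. With each replicate number's mean removed, the 2 SPRY1 probe sets had a correlation of -0.59 over the 12 arrays, as a description.

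SPRY2 is the other reported target, and its protein binds the ubiquitin ligase CBL as well as the adaptor GRB2. Its probe set in AGO2 IP read 8.24 and 8.39 in miR-21 cells against 7.42 and 8.52 in control cells. The miR-21 array was higher in replicate 1 and lower in replicate 2, so the constructs did not separate. The mean difference was 0.35 (0.82 and -0.13; interval -0.21 to 0.90; adjusted p = 0.999). IgG IP gave 8.08 and 8.51 in miR-21 cells against 8.07 and 8.54 in control cells, a difference of -0.01 (interval -0.57 to 0.55). Total RNA gave 7.79 and 8.20 in miR-21 cells against 7.65 and 8.21 in control cells, a difference of 0.06 (interval -0.49 to 0.62). In both of these fractions the 2 constructs differed by at most 0.14 in either replicate.

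SPRY4 inhibits the same receptors' signalling to RAS and had the lowest rank of the 5 leading probe sets. In AGO2 IP it read 5.22 and 4.51 in miR-21 cells against 3.91 and 4.47 in control cells. In miR-21 cells the replicate 1 value was the highest of all 12, and the replicate 2 arrays were 0.03 apart. Its difference was 0.67 (1.31 and 0.03; interval -0.04 to 1.38; adjusted p = 0.999). In IgG IP it read 4.17 and 4.73 in miR-21 cells against 4.17 and 4.41 in control cells, a difference of 0.16 (interval -0.55 to 0.87). Total RNA read 3.98 and 4.35 in miR-21 cells against 4.30 and 4.42 in control cells, a difference of -0.20 (interval -0.91 to 0.51). Here the miR-21 array was the lower one in both replicates, by 0.32 and 0.08.

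SPRED1, which recruits neurofibromin to the membrane, had 3 probe sets. The leading one read 7.88 and 8.47 in AGO2 IP of miR-21 cells against 7.001 and 8.76 in control cells, a difference of 0.30 (0.88 and -0.29; interval -0.91 to 1.50; adjusted p = 0.999). It turned sign between the replicates. In IgG IP it read 5.997 and 8.38 in miR-21 cells against 5.84 and 8.65 in control cells, a difference of -0.06 (interval -1.26 to 1.15). In Total RNA it read 7.06 and 7.76 in miR-21 cells against 6.52 and 7.65 in control cells, a difference of 0.33 (0.54 and 0.11; interval -0.88 to 1.53). The miR-21 array was the higher one in Total RNA of both replicates. Its second probe set, 235074_at, differed in AGO2 IP by 0.41 (0.72 and 0.10). The third, 244439_at, differed there by 1.06 in replicate 1 and -1.06 in replicate 2. Of the 3, only 235074_at kept its sign between replicates in AGO2 IP.

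SPRED2, which inhibits RAF activation as SPRED1 does, read 8.08 and 8.69 in AGO2 IP of miR-21 cells against 7.36 and 8.69 in control cells. The constructs were apart in replicate 1 and equal to 2 decimals in replicate 2. The mean difference was 0.36 (0.73 and -0.00; interval -0.21 to 0.94; adjusted p = 0.999). In IgG IP it read 7.28 and 8.90 in miR-21 cells against 7.30 and 8.49 in control cells, a difference of 0.19 (interval -0.39 to 0.77). In Total RNA it read 7.51 and 8.63 in miR-21 cells against 7.58 and 8.56 in control cells, a difference of 0.00 (interval -0.58 to 0.58). The other SPRED2 probe sets were below the median on average and differed in AGO2 IP by 0.06 (212466_at) and -0.37 (214026_s_at).

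**Figure D2:**
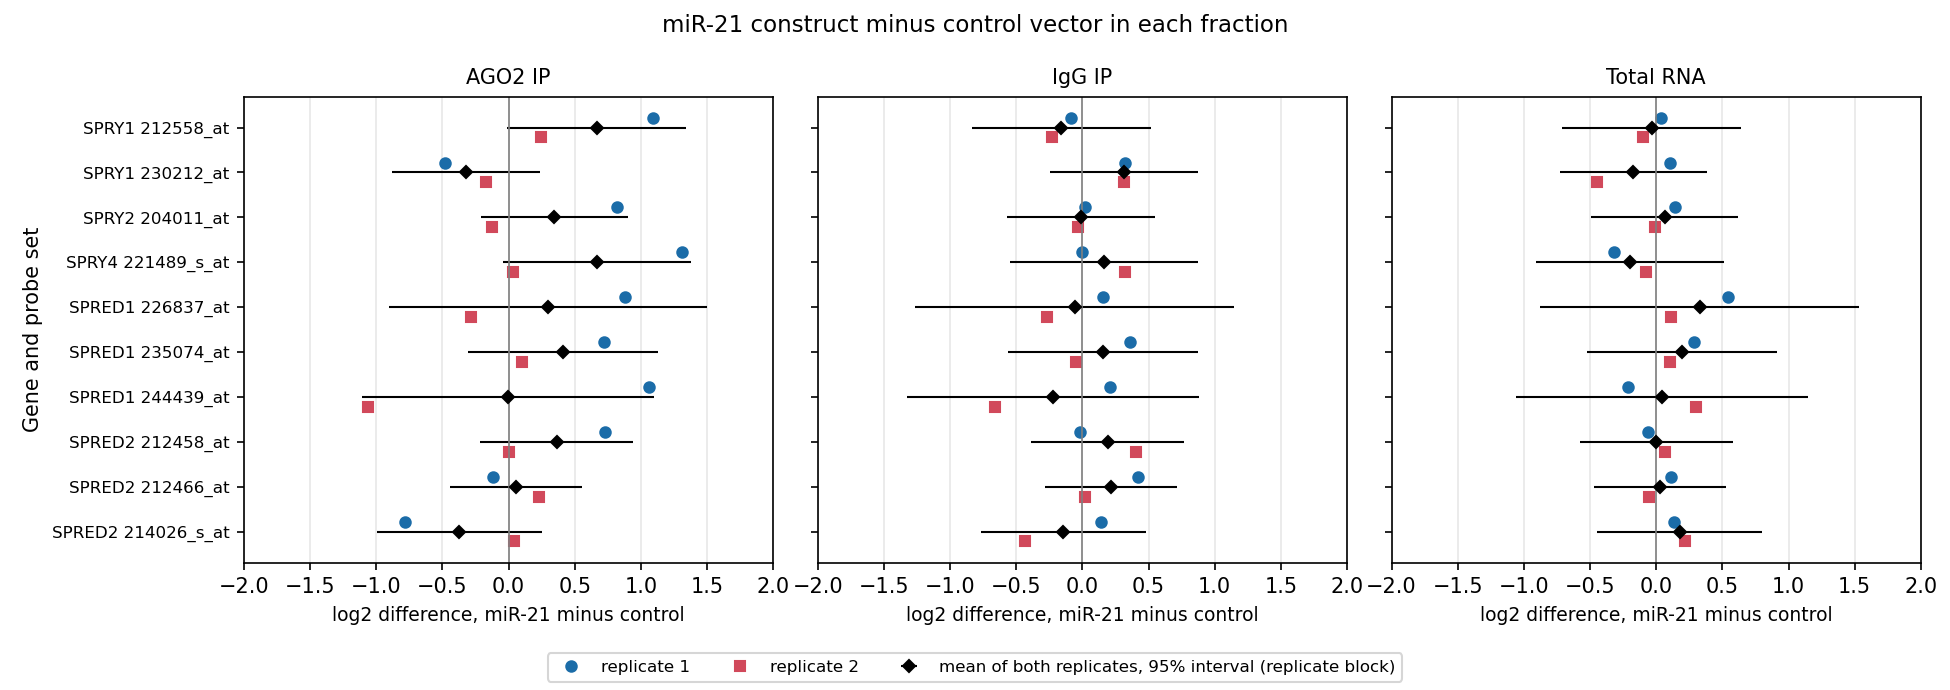
Log2 difference, miR-21 construct minus control vector, for all 10 Sprouty and SPRED probe sets in AGO2 IP, IgG IP and Total RNA, with replicate 1 as circles, replicate 2 as squares and the mean as a diamond with its 95% interval (replicate block). In AGO2 IP the leading probe sets of all 5 genes lie between 0.73 and 1.31 in replicate 1 and between -0.29 and 0.24 in replicate 2.

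In AGO2 IP of replicate 1, all 5 leading probe sets were past 0.5 in favour of miR-21, against 22.2% of the 12824 genes at or above the median. In replicate 2, 0 of 5 were past 0.5, against 19.8%. The median of the 5 was 0.88 in replicate 1 and -0.00 in replicate 2, and that of the 12824 genes 0.13 and 0.02. In replicate 1 the AGO2 IP control array, which had the high ACTB 3' to 5' difference given above, was the lowest of the 6 for SPRY1, SPRY2 and SPRY4. For SPRY2, SPRY4, SPRED1 and SPRED2 the miR-21 array of that IP was the highest of the 6. The part of RNA quality in these values was not tested. Leaving out the control array gave construct differences in AGO2 IP of 0.18 for SPRY1, 0.00 for SPRY2, 0.45 for SPRY4, 0.18 for SPRED1 and 0.25 for SPRED2. Leaving out the miR-21 array of the same IP and replicate gave 0.65, 0.12, 0.13, -0.28 and 0.04 in the same gene order. SPRY1 was moved mainly by the control array, and SPRY4, SPRED1 and SPRED2 more by the miR-21 array. Without 2 arrays of replicate 2 (AGO2 IP control and IgG IP miR-21, each close to the other IP of its construct) it was 1.17, 0.70, 0.95, 0.52 and 0.54 in the same gene order, with adjusted p of 0.245 to 0.799.

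Fractions were compared next, as the mean of both constructs, since an mRNA bound by AGO2 is recovered with its antibody and not with IgG. For the construct differences above, bulk samples cannot tell fewer cells with a transcript from less of it per cell. SPRED1 had the largest mean differences of the 5 leading probe sets between AGO2 IP and each other fraction, and SPRY1, SPRY2, SPRY4 and SPRED2 differed by at most 0.33 in either direction in each mean difference between fractions. With the replicate block limma called 0 of the 10 probe sets in AGO2 IP against IgG IP (0% of all single-symbol probe sets), in AGO2 IP against Total RNA (7.49%, with 1.75% higher) and in IgG IP against Total RNA (1.91%). Without the block 0 of 10 were called and 0% of all. At an unadjusted p under 0.05 the block gave 1 of 10, SPRED1 244439_at in IgG IP against Total RNA, where 6317 of all 41091 probe sets reached it. Of the 41091, 9446 reached it in AGO2 IP against Total RNA and 1762 in AGO2 IP against IgG IP. The members thus did not stand out here, and the fit without the block gave 0 of the 10.

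SPRED1 in AGO2 IP averaged 8.03, against 7.22 in IgG IP and 7.25 in Total RNA. In replicate 1 its AGO2 IP arrays (7.88 in miR-21 and 7.001 in control cells) lay above both IgG IP arrays (5.997 and 5.84). In replicate 2 its AGO2 IP arrays (8.47 and 8.76) overlapped with the IgG IP arrays (8.38 and 8.65), and all 4 lay above the Total RNA arrays (7.76 and 7.65). AGO2 IP exceeded IgG IP by 0.81 (1.52 and 0.10; interval -0.04 to 1.66; adjusted p = 0.925). AGO2 IP exceeded Total RNA by 0.78 (0.65 and 0.91; interval -0.07 to 1.63; adjusted p = 0.258), in the same direction in both replicates. IgG IP differed from Total RNA by -0.03 (interval -0.88 to 0.82), which averages -0.87 in replicate 1 and 0.81 in replicate 2.

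Taken alone, replicate 1 gave a call for SPRED1 in AGO2 IP against IgG IP (1.52 ± 0.227 SE; adjusted p = 0.0127; 6.34% of all probe sets called, 4.49% higher). Leaving out the IgG IP miR-21 array of that replicate ended this call (1.24, adjusted p = 0.0898), and leaving out any other of its 6 arrays kept it. In AGO2 IP against Total RNA replicate 1 alone gave no call for SPRED1 (0.65, adjusted p = 0.104; 16.3% called, 5.28% higher). Replicate 2 alone gave calls in AGO2 IP against Total RNA (0.91 ± 0.189 SE; adjusted p = 0.0203; 19% called, 9.23% higher) and in IgG IP against Total RNA (0.81 ± 0.189 SE; adjusted p = 0.0329; 16.7% called, 8.29% higher). The call in AGO2 IP against Total RNA ended without the AGO2 IP control array (adjusted p = 0.198) or the AGO2 IP miR-21 array (0.122). The call in IgG IP against Total RNA ended without any 1 of the replicate's arrays other than Total RNA miR-21 (adjusted p up to 0.272). These fits had 2 residual degrees of freedom. Their SE combines how far the fraction differences varied between the 2 constructs with a spread that limma pools over all probe sets. The pooled part had 4.77 degrees of freedom in replicate 1 and 4.37 in replicate 2. The spread between replicates does not enter their p-values. Both IPs thus stood above Total RNA in replicate 2, by 0.91 in AGO2 IP and 0.81 in IgG IP.

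The other SPRED1 probe sets gave other patterns. The second, 235074_at, was higher in AGO2 IP than in IgG IP by 0.31 (0.30 and 0.33; interval -0.20 to 0.82). Against Total RNA it was -0.30 in replicate 1 and 0.53 in replicate 2. The third, 244439_at, was lower in AGO2 IP than in IgG IP in both replicates (-0.16 and -0.45), the reverse of the leading one. Its value in IgG IP exceeded that in Total RNA by 0.80 (0.40 and 1.20; interval 0.02 to 1.58; adjusted p = 0.314). Enrichment over IgG IP was thus not shared by all 3 SPRED1 probe sets.

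Among the other members, SPRY2 had the most even difference between IgG IP and Total RNA over the replicates. Its IgG IP arrays (8.08 and 8.07 in replicate 1, 8.51 and 8.54 in replicate 2) lay above its Total RNA arrays (7.79 and 7.65, then 8.20 and 8.21) in both replicates. The difference was 0.33 (0.35 and 0.32; interval -0.06 to 0.73; adjusted p = 0.399). In AGO2 IP SPRY2 exceeded Total RNA by 0.18 (0.11 and 0.25) and lay below IgG IP by 0.16 on the log2 scale (difference -0.16; interval -0.55 to 0.23). The AGO2 IP mean of SPRY2 was thus below its IgG IP mean in both replicates. In replicate 1 this rested on the AGO2 IP control array (7.42), which had the high ACTB difference. The miR-21 array of that IP (8.24) lay above both IgG IP arrays. Leaving out that control array gave 0.01 for SPRY2. SPRY1 in AGO2 IP differed from IgG IP by -0.15 (interval -0.63 to 0.33) and from Total RNA by -0.20 (-0.59 and 0.18). Leaving out the same array gave 0.09 and 0.04 for SPRY1. SPRY4 in AGO2 IP differed by 0.16 from IgG IP and by 0.26 from Total RNA (0.42 and 0.11). SPRED2 in AGO2 IP differed by 0.21 from IgG IP (0.43 and -0.00) and by 0.14 from Total RNA (0.17 and 0.10). None of these 6 intervals excluded 0.

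**Figure D3:**
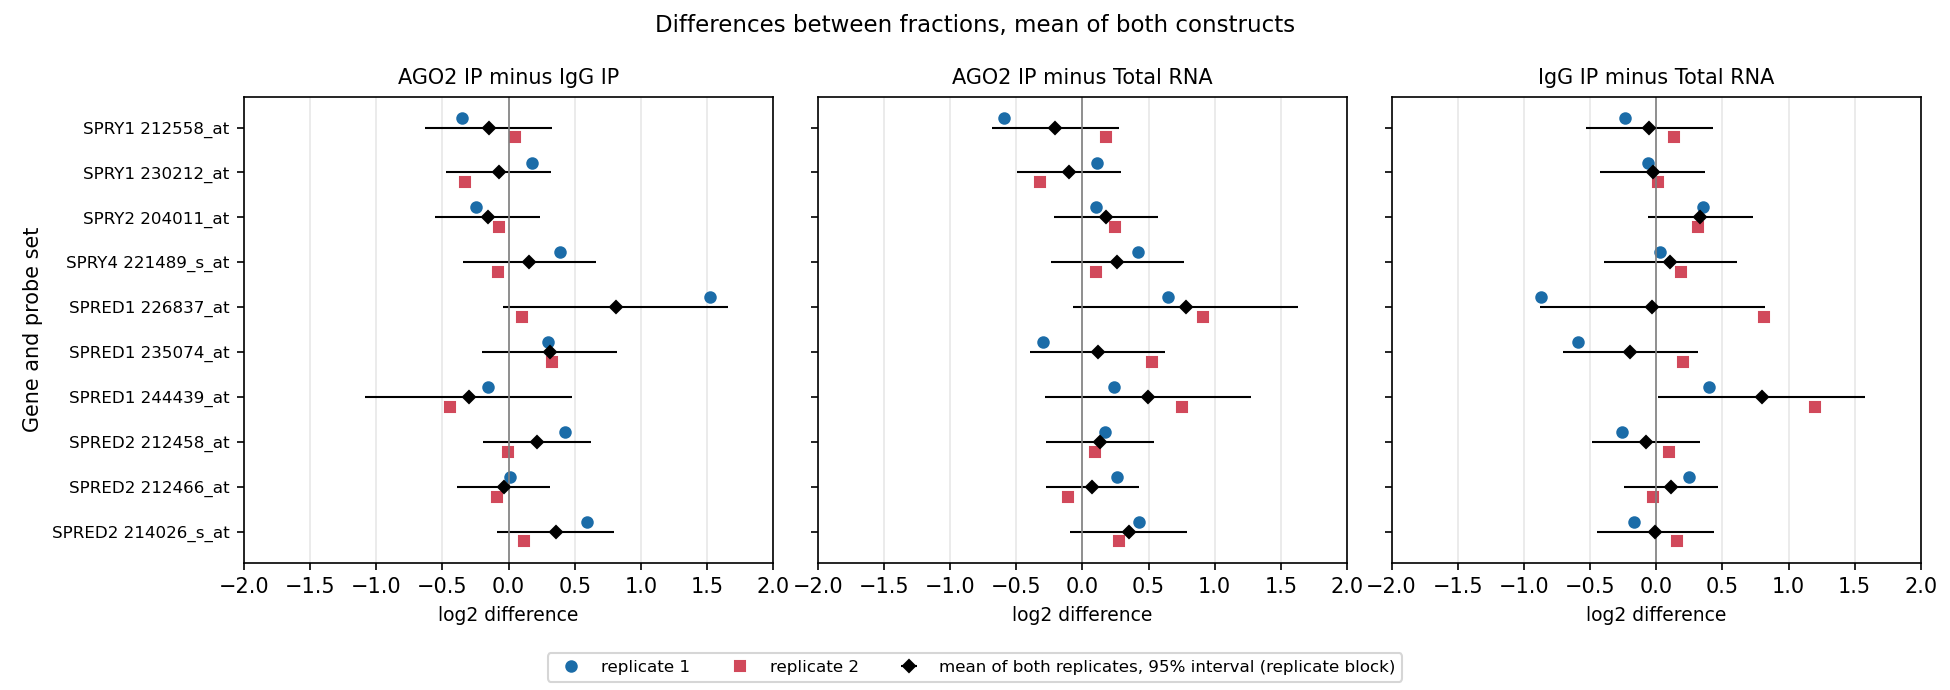
Log2 differences between fractions (mean of both constructs) for the 10 Sprouty and SPRED probe sets, with replicate 1 as circles, replicate 2 as squares and the mean as a diamond with its 95% interval (replicate block). SPRED1 226837_at in AGO2 IP minus IgG IP gives 1.52 in replicate 1 and 0.10 in replicate 2, and IgG IP minus Total RNA gives -0.87 and 0.81.

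The construct's difference in AGO2 IP was also set against its difference in the other fractions. Both interaction comparisons gave 0 calls among the 10 probe sets, with a background of 0%, and none had an unadjusted p under 0.05 with limma, with or without the block. For SPRY1 the construct difference in AGO2 IP exceeded that in IgG IP by 0.83 (1.18 and 0.47; interval -0.13 to 1.78). For SPRY4 it exceeded that in Total RNA by 0.87 (1.63 and 0.11; interval -0.14 to 1.87).

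The members also differed in how far they moved within a replicate number. SPRED1 spanned 2.04 from its lowest to its highest array in replicate 1 and 1.11 in replicate 2, while the median span of probe sets at or above the median was 0.954 and 0.945. SPRY1, SPRY2, SPRY4 and SPRED2 spanned 0.802 to 1.31 in replicate 1 and 0.342 to 0.403 in replicate 2. With replicate means removed, SPRY4 and SPRED2 had the highest correlation of the leading pairs (r = 0.88 over 12 arrays). SPRED1 with SPRED2 gave 0.69, SPRY2 with SPRY4 0.63, SPRY1 with SPRY2 0.57 and SPRY1 with SPRED1 0.09. All of these share the same 12 arrays, including the AGO2 IP control array of replicate 1, which was the lowest of the 12 for SPRY1, SPRY2 and SPRY4.

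Among 12823 other genes, those most like each member over the 12 arrays, after the same centring, were found by Pearson correlation. For SPRED1 they were TENT2 (0.98), LYPLA1 (0.98) and ZNF273 (0.97), and within replicate 1 and replicate 2 alone TENT2 gave 0.99 and 0.99. For SPRY1 they were C7orf13 (0.96), CEP76 (0.94) and CA8 (0.94), and within replicate 2 alone these gave 0.41 to 0.77. For SPRY2 they were CMTM8 (0.95), ANKLE1 (0.93) and GPKOW (0.91), with 0.84 to 0.91 within replicate 2 alone. SPRY4 was most like SMYD2 (0.93), SPRED2 (0.88) and DIXDC1 (0.88), and within replicate 2 alone DIXDC1 gave 0.30 and the others 0.88. SPRED2 was most like MAP3K5 (0.92), CNKSR2 (0.91) and MERTK (0.90), with 0.54 to 0.64 within replicate 2 alone. All these genes were picked on the same arrays, so values within a replicate number are a description and no separate check.

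The pathway around the members was read from 3 lists: 19 of 26 RAS-ERK cascade genes, 10 of 10 Sprouty and SPRED partners and relatives, and 19 of 20 genes that respond to ERK, the others being not analysed here. No gene of these lists was called for the construct in any fraction, nor in AGO2 IP against IgG IP, with or without the block. At an unadjusted p under 0.05 with the block, limma gave 0 to 1 gene a list for the construct and 1 to 3 a list for AGO2 IP against IgG IP. Over all 19775 genes it gave 746 for the construct in AGO2 IP, 353 in IgG IP and 23 in Total RNA, and 978 for AGO2 IP against IgG IP. In AGO2 IP against Total RNA with the block, 8.52% of the 19775 genes were called (2.09% higher and 6.43% lower). In the cascade 4 of 19 fell and 0 rose, with a median of -0.25 against 0.07 over all genes. T cell markers moved the same way, with 2 of 11 lower, 0 higher and a median of -0.45. IQGAP1, a scaffold that binds MEK and ERK, fell by 1.56 on the log2 scale (-1.87 and -1.25; adjusted p = 0.00896). MAP2K2, which encodes the ERK kinase MEK2, fell by 1.47 (-0.90 and -2.04; adjusted p = 0.0231), and KSR1, another scaffold, fell by 0.68 (adjusted p = 0.0404). GRB2, the adaptor that Sprouty proteins bind, fell by 0.57 (adjusted p = 0.0439) and is named here after its value was seen. Other probe sets of IQGAP1 gave -1.57 and -1.35, those of MAP2K2 gave -1.21 and 0.20, those of KSR1 gave 0.15 to 0.19, and those of GRB2 gave -0.18 and 0.01. With each of the 12 arrays left out in turn, the call of IQGAP1 was kept 11 times, that of MAP2K2 8 times, that of KSR1 3 times and that of GRB2 1 time.

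CBL, the ubiquitin ligase that SPRY2 binds, was the only 1 of the 10 partners and relatives called in AGO2 IP against Total RNA and fell by 1.45 (-1.50 and -1.41; adjusted p = 0.0138), with a list median of 0.05. Its 4 other probe sets ran from -1.50 to -0.09. NF1, which encodes neurofibromin, the partner of the SPRED proteins, had a difference of 0.03 and did not pass. SPRY3 and SPRED3, the remaining family genes, had differences of 0.13 and 0.06. In IgG IP against Total RNA, where 1.68% of genes were called, CBL (-1.17, adjusted p = 0.0464) and IQGAP1 (-1.25, adjusted p = 0.0290) fell as well. Both of these calls were kept when either AGO2 IP control array was left out, 1 was kept without the IgG IP miR-21 array of replicate 1, and none without each of the other 9 arrays.

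Of the ERK-responsive genes 3 of 19 rose in AGO2 IP against Total RNA and 0 fell, with a median of -0.05. They were IER3, an immediate early gene (2.54, with 3.11 and 1.96; adjusted p = 0.0274), DUSP5, a nuclear ERK phosphatase (1.63, with 1.88 and 1.38; adjusted p = 0.0400) and DUSP6, a cytoplasmic ERK phosphatase (1.14, with 1.25 and 1.02; adjusted p = 0.0405). The other DUSP6 probe sets gave 1.25 and 1.41. EGR1 and FOS, early transcription factors of the same pathway, had differences of -0.06 and 0.12 and did not pass. None of the 3 was called in IgG IP against Total RNA, and the difference between the IPs was not called either. With the block only 0.273% of all genes were called higher in IgG IP against Total RNA, and 0% were called between the IPs. These missing calls therefore do not show that the rise was particular to AGO2 IP. All 8 list calls in AGO2 IP against Total RNA were lost when the replicate 2 array of AGO2 IP in miR-21 cells was left out, and kept without the AGO2 IP control array of replicate 2. Without each of the other 10 arrays in turn 1 to 6 of the 8 were kept. Without the block limma called none of them. Summed on the linear scale, T cell markers ran from 8203 to 12127 in AGO2 IP, 8440 to 13867 in IgG IP and 9030 to 18120 in Total RNA. B cell markers ran from 125 to 244 in AGO2 IP, 126 to 210 in IgG IP and 107 to 204 in Total RNA, and monocyte markers from 48.7 to 63.5, 53.3 to 64.1 and 41.1 to 58.4. Their part in these differences was not tested.

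**Figure D4:**
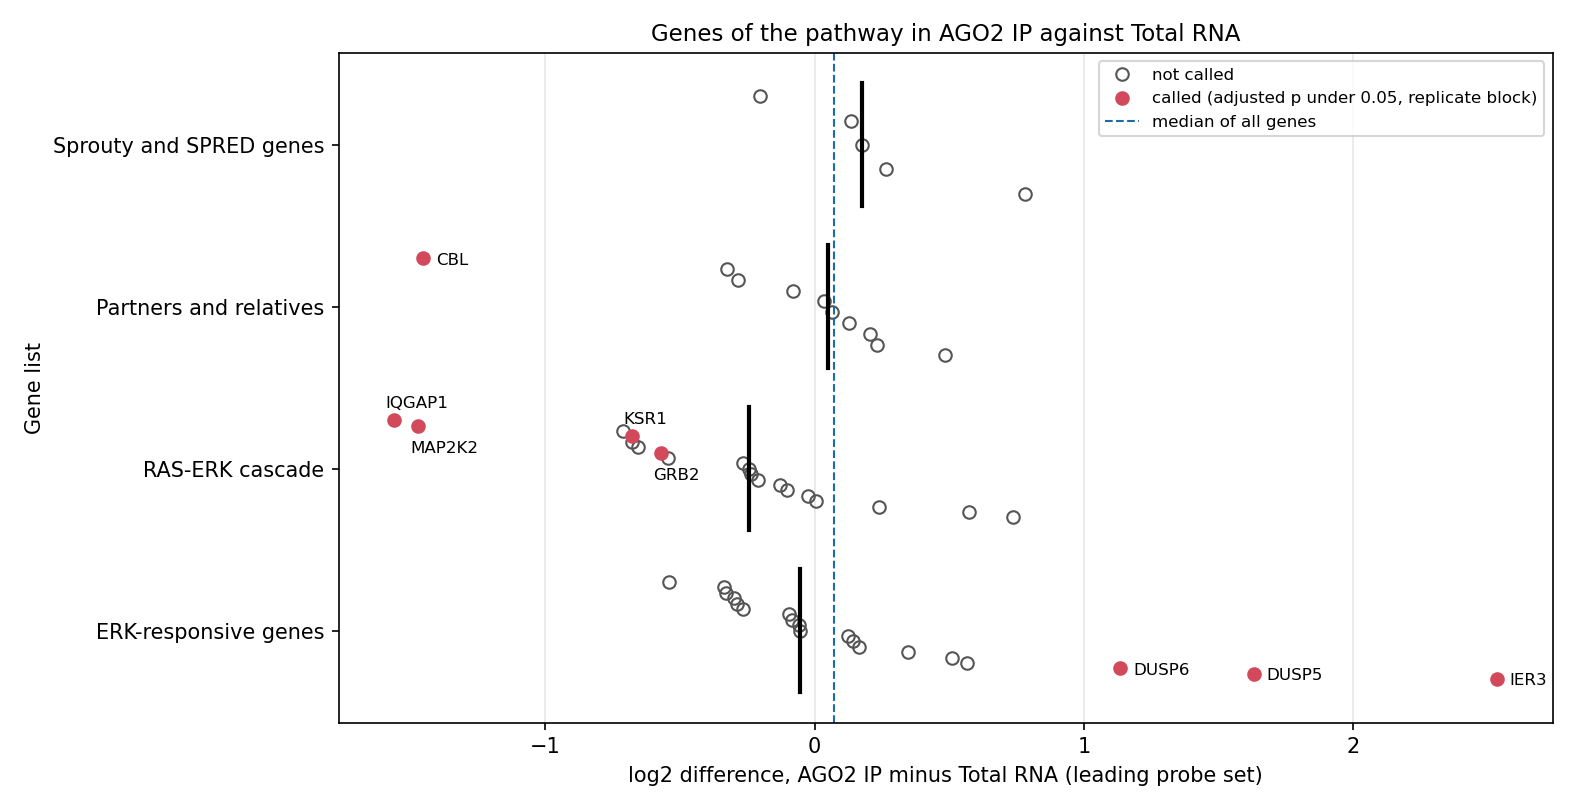
Log2 differences, AGO2 IP minus Total RNA, of the leading probe set of each Sprouty and SPRED gene and of each gene of the 3 lists, with filled circles for genes called with the replicate block, a black bar for each list's median and a dashed line for the median of all genes (0.07). No Sprouty or SPRED gene was called, while IQGAP1 (-1.56), MAP2K2 (-1.47) and CBL (-1.45) lie far to the left and IER3 (2.54) far to the right.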

How the data were processed

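The deposited values are log2 RMA values made by the authors, per the submitters' processing notes; RMA corrects background, normalizes arrays and summarises probes. The sources used here do not give its version or settings, or whether all 12 arrays were normalized together. Of 54675 probe sets, 62 were controls, 41091 had 1 gene symbol in the platform annotation, 1801 several and 11721 none; only those with 1 were tested. Members and gene lists were chosen with earlier results of these data known. Probe sets of a gene were kept apart; its leading one has the highest mean. The rule for named genes took all 10 member probe sets, the 3 genes most like each member, and up to 3 called genes per list.

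Tests used limma 3.58.1 in R 4.3.3 (data.table version 1.17.8): 6 group means over 12 arrays (6 residual degrees of freedom), Benjamini-Hochberg adjustment over 41091 probe sets, called at an adjusted p under 0.05. The labels give no shared culture for replicate numbers, but the deviations from group means of arrays with the same number had correlations of 0.490 to 0.856 over the 15 pairs of groups, so the replicate number was also fitted as a block (5 residual degrees of freedom). Intervals are 95% intervals from the block fit. Fits within 1 replicate number held fraction and construct as additive terms. The fits were tested on simulated data. Figures used Python 3.11.15, matplotlib 3.10.9 and pandas 2.3.3. Precision is limited by having 2 arrays a group. Alternatives were normalization, a filter on low values, 1 probe set per gene, an intensity trend and left-out arrays.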

Additional observations from a re-analysis of the deposited data

Results flagged for a closer look

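All member probe sets were searched for opposite signs of the construct difference between fractions. How often such a search finds some by chance, or over all probe sets, was not tested. In this search the construct difference of 2 members had opposite signs in 2 fractions in both replicates. For SPRY1 212558_at it was 1.09 and 0.24 in AGO2 IP and -0.09 and -0.23 in IgG IP, a gap of 0.83 between the fractions. The second SPRY1 probe set, 230212_at, did the reverse, with -0.48 and -0.17 in AGO2 IP and 0.32 and 0.31 in IgG IP, a gap of -0.64. For SPRY4 221489_s_at it was 1.31 and 0.03 in AGO2 IP and -0.32 and -0.08 in Total RNA, a gap of 0.87. None of the 3 gaps passed limma's interaction test (adjusted p = 1.00 with the replicate block). The cause was not tested.

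For each of the 10 member probe sets, the 4 arrays of each fraction were examined for 1 value far from the rest, and 0 of the 30 sets of 4 values had one. This covers the members' levels only, not the RNA quality of the arrays. Each set of 4 mixed both replicate numbers, whose means for SPRY1 212558_at were 5.71 and 7.69. With such a shift inside a set, 1 outlying value is hard to flag. The SPRY1 value of 4.85 in the AGO2 IP control array of replicate 1 was not flagged. No conclusion is drawn from the count of 0.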

How the results depend on the processing

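Counts of called member probe sets were 0 in the 8 comparisons under every alternative but 3: SPRED1 226837_at gave 1 call in AGO2 IP against IgG IP in replicate 1 alone, 1 in AGO2 IP against Total RNA and 1 in IgG IP against Total RNA in replicate 2 alone. Without each array in turn they were 0 to 0. Adding the replicate block changed no member's call; it moved the calls over all probe sets, which without it were 0, to 3076 in AGO2 IP against Total RNA and 784 in IgG IP against Total RNA. Of the 40 differences of leading probe sets none passed over 11 alternatives, apart from those 3 SPRED1 values. In replicate 2 alone the sign turned for SPRY1 in AGO2 IP minus IgG IP (0.05), AGO2 IP minus Total RNA (0.18) and IgG IP minus Total RNA (0.13), SPRY4 in AGO2 IP minus IgG IP (-0.08), SPRED1 in IgG IP minus Total RNA (0.81), and SPRED2 in AGO2 IP minus IgG IP (0.00 after rounding) and IgG IP minus Total RNA (0.10). Quantile normalization and cyclic loess turned IgG IP minus Total RNA for SPRY1 (0.07 and 0.06) and SPRED1 (0.05 and 0.05) and the construct difference in Total RNA for SPRED2 (-0.03 and -0.03). Without 2 arrays of replicate 2 (AGO2 IP control and IgG IP miR-21), an alternative chosen after seeing the data, the construct difference in IgG IP turned for SPRY4 (-0.12) and SPRED2 (-0.13), IgG IP minus Total RNA for SPRY4 (-0.03), and the AGO2 IP against Total RNA interaction for SPRED1 (0.20). Leaving out 1 array turned 25 of the 40 differences, with the following ranges. Construct in Total RNA: SPRY1 -0.30 to 0.24, SPRY2 0.00 to 0.13, SPRED1 -0.19 to 0.85 and SPRED2 -0.09 to 0.09. Construct in AGO2 IP: SPRY2 0.00 to 0.69 and SPRED1 -0.28 to 0.88. Construct in IgG IP: SPRY2 -0.07 to 0.05, SPRY4 -0.06 to 0.38, SPRED1 -0.81 to 0.69 and SPRED2 -0.09 to 0.48. AGO2 IP minus IgG IP: SPRY1 -0.40 to 0.09, SPRY2 -0.33 to 0.01 and SPRY4 -0.11 to 0.42. AGO2 IP minus Total RNA: SPRY1 -0.45 to 0.04, SPRY4 -0.01 to 0.53 and SPRED2 -0.02 to 0.30. IgG IP minus Total RNA: SPRY1 -0.19 to 0.08, SPRY4 0.00 to 0.22, SPRED1 -0.40 to 0.35 and SPRED2 -0.22 to 0.06. Interaction of AGO2 IP with IgG IP: SPRY4 -0.03 to 1.05, SPRED1 -0.39 to 1.10 and SPRED2 -0.15 to 0.49. Interaction of AGO2 IP with Total RNA: SPRY2 -0.07 to 0.63 and SPRED1 -0.61 to 0.55. The cause was not tested. Within 1 replicate number the interactions, and the construct within a single fraction, could not be tested, as no residual degrees of freedom remain. Signal over background is not in the deposited values, so the 3 probe sets below the median, and that of SPRY4 close to it, may carry little signal.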
